A study of Mus musculus with 10 samples.

Results

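The genes described here are 10 markers of absorptive colonocytes, the surface cells of the large bowel that take up salt and water: Car1, Car2, Car4, Aqp8, Slc26a3, Guca2a, Guca2b, Krt20, Ceacam1 and Hsd11b2. Their members on the array were all probe sets annotated to 1 of these genes and to no other, which gave 21 probe sets of 45037 once Affymetrix controls were set aside. Ceacam1 had 8 of them, Slc26a3 had 4, Car4 had 2 and the other genes had 1 each. A further 2 probe sets were annotated to Ceacam1 together with another gene and were left out.

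The samples were colon tumours taken by laser dissection from 14 µm sections of 1 cm colon segments. The mutant tumours (KO) came from mice carrying vil-Cre and labelled Bcl9-/- and Bcl9l-/-, and the control tumours (WT) came from wildtype mice. The strain background was a mix of 129SvEv, C57BL/6 and DBA/2. All mice, KO and WT, were 6 to 8 weeks old and received the carcinogen dimethylhydrazine (DMH) at 44 mg/kg, followed for 7 days by 2% dextran sulfate sodium (DSS), an agent that injures the colon lining. The vil-Cre transgene uses the promoter of villin, a gene of the gut epithelium, so that other cells of the dissected tissue need not carry the deletion. From each tumour 30 ng of RNA were amplified and hybridised to 1 Affymetrix mouse genome array. The 5 KO tumours came from 3 mice (tumours 2 and 6 from mouse 02, 9 and 11 from mouse 04, 7 from mouse 99). The 5 WT tumours came from 2 mice (tumours 1, 3, 12 and 13 from mouse 72, 8 from mouse 82). One label mentions that samples from the same mouse were pooled, yet up to 4 arrays name the same mouse; each array was taken here as 1 tumour.

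Absorptive colonocytes arise from crypt stem cells and switch on their transport genes as they move to the surface. Carbonic anhydrases supply bicarbonate and protons, the exchanger Slc26a3 trades bicarbonate for chloride, and water follows through channels such as Aqp8. The peptides guanylin (Guca2a) and uroguanylin (Guca2b) act on the receptor Gucy2c at the surface and regulate salt and fluid movement. Wnt signalling through beta-catenin, for which Bcl9 and Bcl9l are co-factors, maintains the stem cells at the crypt base, and colon tumours often lose markers of the surface cells.

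Over the 10 arrays the median log2 signal was 6.43 to 6.50. The 3′ minus 5′ difference of the control probe sets for Gapdh and Actb, a measure of RNA integrity, was 0.705 to 1.17 log2 in KO tumours and 0.776 to 1.14 log2 in WT tumours. The 8 simple epithelial markers, such as Epcam and Cdh1, averaged 11.88 to 12.22 log2 in KO tumours and 11.76 to 12.23 log2 in WT tumours, so the labelled epithelial tissue carried its defining markers. Bcl9 and Bcl9l had 5 probe sets, of which 4 were above the level filter and 0 of the 4 passed the test, with higher means in KO by 0.13 to 0.32 log2 (adjusted p = 0.240 to 0.650, limma). The fifth, 1443700_at of Bcl9l, was at 4.55 to 4.67 log2 in KO and 4.70 to 4.83 log2 in WT tumours. Whether any of the 5 falls within the deleted sequence is not given in the labels, so the genotypes cannot be checked from them. In bulk tissue, fewer cells of a type and less RNA per cell cannot be told apart.

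Guca2b was the only one of the 10 genes with a probe set that passed the test, and it was higher in KO tumours. Of the 14 member probe sets above the level filter, 1 was higher, beside 3.21% of all 27001 probe sets tested, and 0 were lower, beside 2.52%, or 5.73% in both directions together (limma, mouse as a random block, Benjamini-Hochberg adjustment over all probe sets tested, threshold 0.05). An unadjusted p under 0.05 was reached by 5 of the 14, beside 20.7% of all probe sets tested, namely Guca2b, Car1 and 3 probe sets of Ceacam1. The filter kept probe sets whose mean over the 10 tumours was at least log2 5.82. The other 7 probe sets, those of Aqp8, Car4 and Slc26a3, lay below it, and 0 of them passed in the fit without a filter, in which 4.36% of 45037 probe sets passed (2.31% higher and 2.05% lower), and 1 of the 7 had an unadjusted p under 0.05. The median difference of the 14 was 0.80 log2, against 0.01 over all probe sets tested, but 8 of the 14 are probe sets of Ceacam1. With the highest probe set of each gene, the median over the 10 genes was −0.01 log2. Differences are KO minus WT from the fit, whose weighting of mice can move them slightly from the difference of the plain means.

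**Figure D1:**
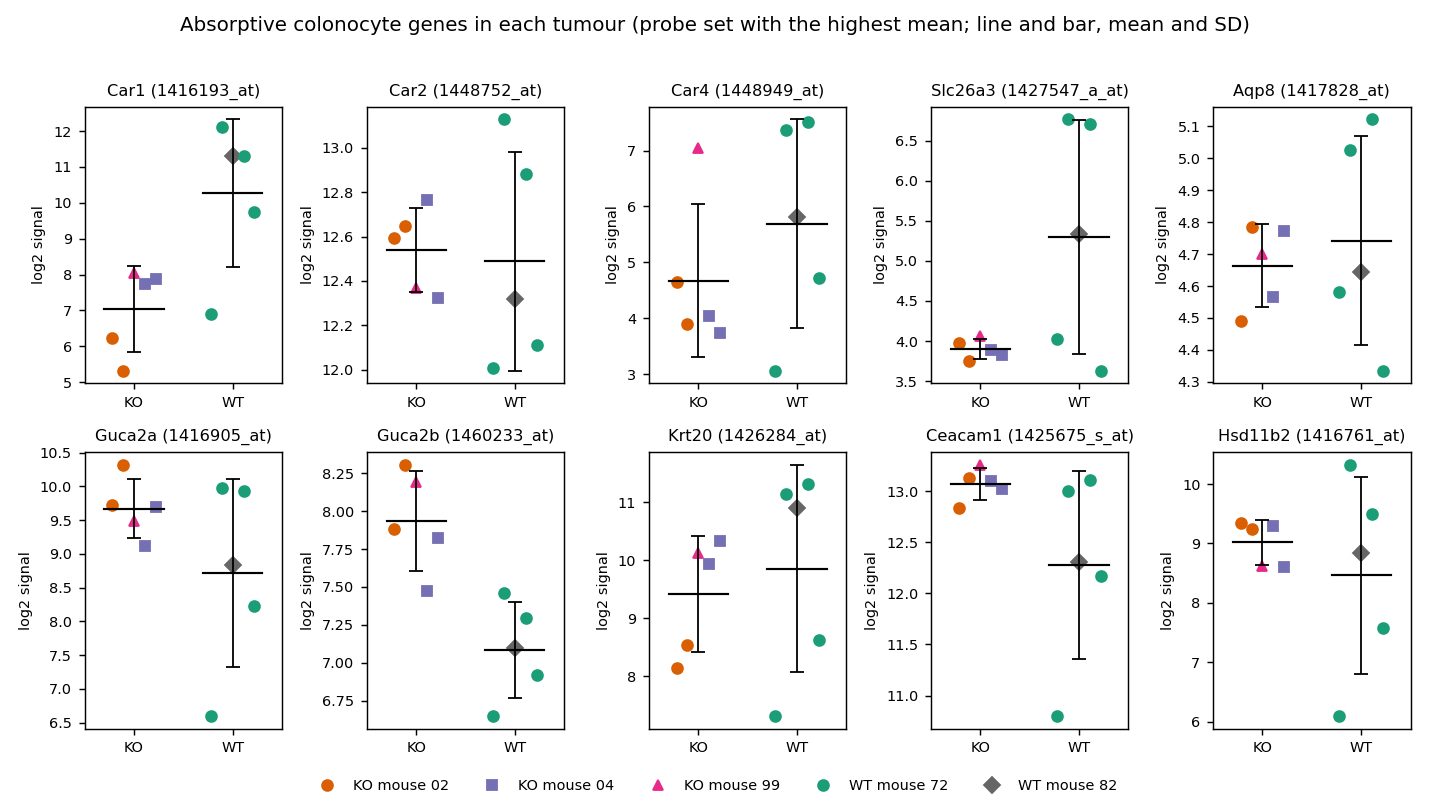
The log2 RMA signal (y axis) of the 10 genes, each shown by its probe set with the highest mean, in 5 KO tumours (left in each panel) and 5 WT tumours (right). Points are tumours, with shape and colour for the mouse, the line is the group mean and the bar the SD. Guca2b is the gene whose KO and WT points do not overlap, and in most panels the WT points spread over a wider range than the KO points.

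**Figure D2:**
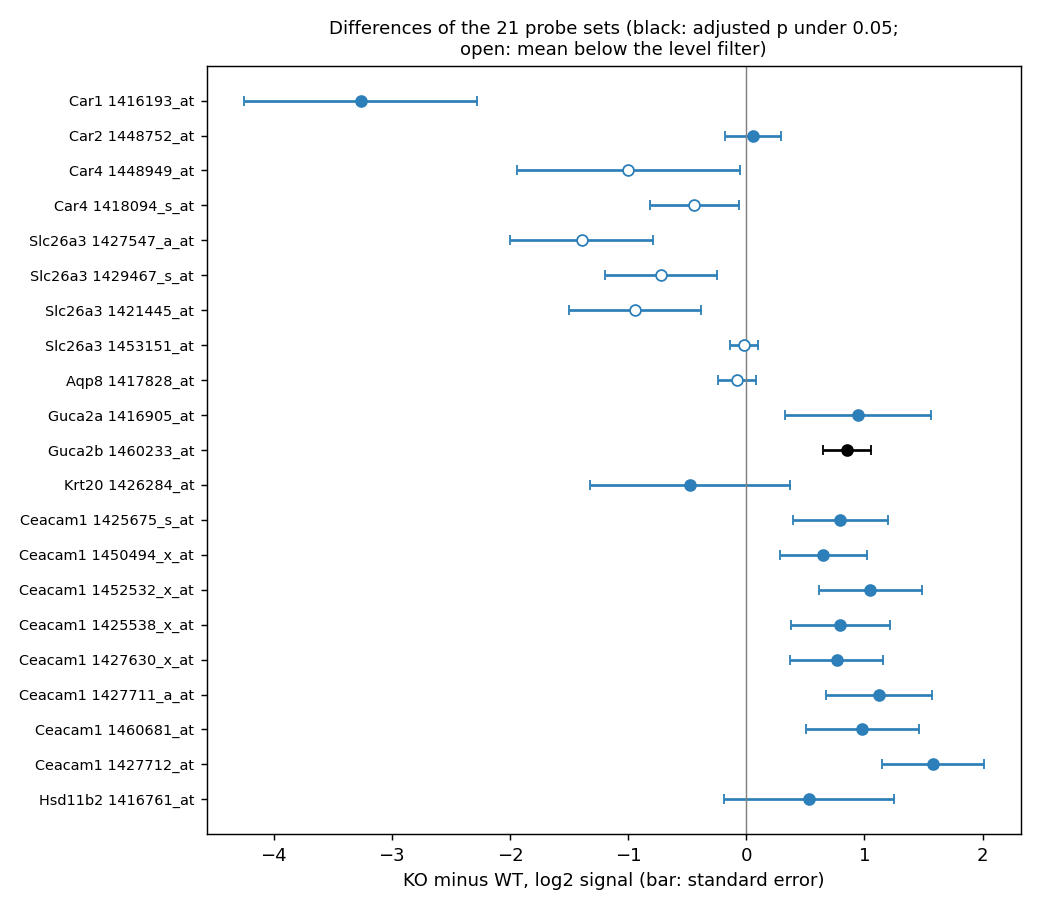
The difference between KO and WT tumours in log2 signal (x axis) for the 21 probe sets (y axis), with its standard error as the bar, from the limma fit. The black point is Guca2b, at 0.85, the only one with an adjusted p under 0.05, and open points are the 7 probe sets below the level filter.

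The carbonic anhydrases interconvert carbon dioxide and bicarbonate. Car1, a cytosolic form typical of the colon surface, had the largest difference of the 21 probe sets. It was at 6.22, 5.32, 8.03, 7.74 and 7.88 log2 in KO tumours 2, 6, 7, 9 and 11, against 6.91, 12.10, 11.30, 11.31 and 9.75 in WT tumours 1, 3, 8, 12 and 13. WT tumour 1 lay among the KO tumours, and the other WT tumours lay above all KO tumours. The difference was −3.26 ± 0.99 log2 (SE), a 9.60-fold difference in signal, and did not pass (adjusted p = 0.0827, limma). Without WT tumour 1 it was −4.06 log2 and passed (adjusted p = 0.00926, limma). Within the KO tumours Car1 went with the mouse, at 5.77 log2 on average in mouse 02, against 7.81 in mouse 04 and 8.03 in mouse 99.

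Sample numbers in the labels fall into 2 ranges that cross the genotypes unevenly. The range 191 to 229 holds 1 KO tumour and 4 WT tumours, and the range 254 to 258 holds 4 KO tumours and WT tumour 1. Differences within a range are given here as differences of plain means. For Car1 this was −3.08 log2 in the lower range and −0.12 log2 in the upper, and the fit gave −1.60 log2 once a term for the range was added (adjusted p = 0.331, limma), so that the upper range and WT tumour 1 cannot be told apart. What the ranges stand for is not given in the labels.

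Car2, the other cytosolic form, hardly differed in mean. It was at 12.59, 12.65, 12.37, 12.77 and 12.32 log2 in KO tumours 2, 6, 7, 9 and 11, against 12.01, 13.13, 12.32, 12.88 and 12.11 in WT tumours 1, 3, 8, 12 and 13. The groups overlapped, and the difference was 0.06 ± 0.23 log2 (SE, adjusted p = 0.927, limma), at −0.24 log2 in the lower number range and 0.58 log2 in the upper. Car4, a form anchored to the cell surface, lay below the level filter by both of its probe sets. Its higher probe set, 1448949_at, was at 4.65, 3.89, 7.04, 4.03 and 3.74 log2 in KO tumours 2, 6, 7, 9 and 11, against 3.06, 7.37, 5.80, 7.51 and 4.71 in the WT tumours in the order above. KO tumour 7 stood with the high WT tumours, and the groups overlapped. The difference was −1.0 ± 0.94 log2 (SE, adjusted p = 0.646, limma without a filter), and that of the second probe set, 1418094_s_at, was −0.44 ± 0.38 log2 (adjusted p = 0.611). Within the number ranges the 1448949_at difference had the other sign, at 0.69 log2 in the lower and 1.01 log2 in the upper.

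Slc26a3, the chloride and bicarbonate exchanger of the colon surface, was low in every KO tumour and varied among WT tumours. Its KO values, at 4.07 log2 or less, lay far below the level filter and may be near background, which was not tested. Probe set 1427547_a_at was at 3.97, 3.75, 4.07, 3.89 and 3.83 log2 in KO tumours 2, 6, 7, 9 and 11, against 4.03, 6.77, 5.33, 6.71 and 3.63 in WT tumours 1, 3, 8, 12 and 13. WT tumours 3, 8 and 12 lay above all KO tumours, WT tumour 1 lay within their range and WT tumour 13 below it. The difference was −1.39 ± 0.61 log2 (SE), with an unadjusted p of 0.0423 and an adjusted p of 0.252 (limma without a filter). Probe sets 1421445_at and 1429467_s_at had differences of −0.94 ± 0.56 and −0.72 ± 0.47 log2 (SE), with the same WT tumours 3, 8 and 12 above all KO tumours. The fourth, 1453151_at, stayed between 2.45 and 3.0 log2 in all 10 tumours, with a difference of −0.02 ± 0.12 log2 (SE). Within the lower number range the 1427547_a_at difference was −1.54 log2, and within the upper range, against WT tumour 1 alone, −0.17 log2.

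Aqp8, a water channel of the colon surface, varied little. It was at 4.49, 4.79, 4.70, 4.56 and 4.77 log2 in KO tumours 2, 6, 7, 9 and 11, against 4.58, 5.03, 4.64, 5.12 and 4.34 in WT tumours 1, 3, 8, 12 and 13. The groups overlapped, with a difference of −0.08 ± 0.16 log2 (SE, adjusted p = 0.863, limma without a filter). Signals this far below the level filter may be near background, for which no detection calls were used here.

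The guanylin genes lie next to each other on chromosome 4, by the gene order of RefSeq GRCm38.p6. Their promoters are shown because Guca2b is the gene that passed the test, and that of Slc26a3 because its KO tumours were uniformly low. Each runs from 250 bases before to 50 bases after the gene's start, from RefSeq with build GRCm38.p6, as do those of 7 of the 10 genes in the table used. A first search on both strands for 4 motifs, TTTATG (CDX), CTTTGAT (TCF/LEF), CAAAGTCCA (HNF4) and the whole HNF1 palindrome, found a match in 0 of the 7 promoters. Only exact matches to these strings were counted, and variant forms of the sites were not searched. The other 2 motifs, GTTAAT (an HNF1 half-site) and AGATAA (the site read by the family of zinc-finger factors that includes Gata4 and Gata6), were chosen after the sequences had been read, so their matches are only a description. Capitals mark GTTAAT in Guca2b and Slc26a3, and AGATAA on the opposite strand, read as TTATCT, in Guca2a. No match overlaps another. Guca2a is at chr4:119637482-119637781 on the plus strand, Guca2b at chr4:119658896-119659195 on the minus strand and Slc26a3 at chr12:31437969-31438268 on the plus strand.
Guca2a: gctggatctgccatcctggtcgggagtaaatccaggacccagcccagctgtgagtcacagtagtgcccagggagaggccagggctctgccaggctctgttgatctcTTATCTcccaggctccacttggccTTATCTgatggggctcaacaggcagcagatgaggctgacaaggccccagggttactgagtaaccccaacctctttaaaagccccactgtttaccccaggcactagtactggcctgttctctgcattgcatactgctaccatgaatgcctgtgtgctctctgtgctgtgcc
Guca2b: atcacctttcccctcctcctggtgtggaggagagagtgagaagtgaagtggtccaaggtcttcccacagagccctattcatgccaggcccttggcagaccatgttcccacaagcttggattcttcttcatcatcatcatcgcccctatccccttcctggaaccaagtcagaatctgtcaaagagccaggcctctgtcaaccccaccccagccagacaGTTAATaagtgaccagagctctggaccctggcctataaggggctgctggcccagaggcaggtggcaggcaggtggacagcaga
Slc26a3: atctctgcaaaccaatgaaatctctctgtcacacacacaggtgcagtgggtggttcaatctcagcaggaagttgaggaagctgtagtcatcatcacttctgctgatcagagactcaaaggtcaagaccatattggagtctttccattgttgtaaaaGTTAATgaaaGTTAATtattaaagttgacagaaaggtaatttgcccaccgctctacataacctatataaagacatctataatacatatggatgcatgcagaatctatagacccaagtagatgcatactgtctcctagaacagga
Of the 32851 promoters in the table, 7.1% hold GTTAAT and 11.18% hold AGATAA, against 11.85% for TTTATG, 3.73% for CTTTGAT, 0.47% for CAAAGTCCA and 0.01% for the HNF1 palindrome.

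Guca2b, which encodes uroguanylin, was 1.81-fold higher in KO tumours. It was at 7.88, 8.31, 8.19, 7.47 and 7.82 log2 in KO tumours 2, 6, 7, 9 and 11, against 6.65, 7.46, 7.10, 7.29 and 6.92 in WT tumours 1, 3, 8, 12 and 13. All KO tumours lay above all WT tumours, but the lowest KO tumour, 9, and the highest WT tumour, 3, nearly touched. The means were 7.94 ± 0.33 in KO and 7.08 ± 0.32 log2 in WT tumours (SD, n = 5 each), and the difference was 0.85 ± 0.20 log2 (SE, adjusted p = 0.0344, limma). It was 1.0 log2 in the lower number range, which holds 1 KO tumour, and 1.22 log2 in the upper, which holds 1 WT tumour, and neither range alone passed. The call was also lost over mouse means (0.89 log2, adjusted p = 0.0811, limma), with a term for the 3′ to 5′ difference (0.79 log2, adjusted p = 0.0795) and without any of KO tumours 6, 7 and 11 or WT tumours 1, 8 and 13 (0.75 to 0.88 log2, adjusted p = 0.0548 to 0.0917). Leaving out mouse 02, with its KO tumours 2 and 6, ended it as well.

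Guca2a, which encodes guanylin, did not pass. It was at 9.72, 10.32, 9.48, 9.12 and 9.70 log2 in KO tumours 2, 6, 7, 9 and 11, against 6.60, 9.98, 8.83, 9.93 and 8.23 in WT tumours 1, 3, 8, 12 and 13. WT tumours 3 and 12 lay among the KO tumours and the other 3 WT tumours below them. The difference was 0.95 ± 0.62 log2 (SE, adjusted p = 0.427, limma), at 0.24 log2 in the lower number range and 3.12 log2 in the upper, against WT tumour 1.

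Krt20, the keratin of differentiated surface cells, overlapped between the groups. It was at 8.14, 8.53, 10.13, 9.94 and 10.34 log2 in KO tumours 2, 6, 7, 9 and 11, against 7.31, 11.13, 10.89, 11.32 and 8.62 in WT tumours 1, 3, 8, 12 and 13. WT tumours 3, 8 and 12 lay above all KO tumours, and WT tumour 1 below all of them. The difference was −0.48 ± 0.85 log2 (SE, adjusted p = 0.805, limma), at −0.37 log2 in the lower number range and 1.93 log2 in the upper. As for Car1, the KO tumours of mouse 02 were lower, at 8.33 log2 on average, than those of mouse 04 at 10.14 and mouse 99 at 10.13.

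Ceacam1, an adhesion molecule of the apical surface, had a higher mean in KO tumours by all 8 of its probe sets. These are annotated to the same gene and were measured in the same RNA. Whether they read the same transcripts was not tested. The probe set with the largest difference, 1427712_at, was at 9.70, 10.09, 10.39, 10.10 and 10.001 log2 in KO tumours 2, 6, 7, 9 and 11, against 7.09, 9.32, 8.40, 9.48 and 8.13 in WT tumours 1, 3, 8, 12 and 13. Its KO tumours all lay above its WT tumours, with a difference of 1.58 ± 0.43 log2 (SE), and it missed the threshold (adjusted p = 0.0559, limma). Of all probe sets tested, 8.39% did not overlap between KO and WT tumours, and among the 14 tested member probe sets these were 1427712_at and the Guca2b probe set. The other 7 Ceacam1 probe sets overlapped, with differences of 0.65 to 1.12 log2 and adjusted p-values of 0.182 to 0.350 (limma). The probe set with the highest mean, 1425675_s_at, was at 12.84 to 13.26 log2 in the 5 KO tumours, against 10.80, 13.01, 12.31, 13.11 and 12.17 in the WT tumours in the order above, so that WT tumours 3 and 12 reached the KO levels. For 1427712_at the difference was 1.56 log2 in the lower number range and 2.88 log2 in the upper. Over mouse means, 3 KO against 2 WT mice, 4 of the 8 Ceacam1 probe sets passed, and 1427712_at was among them. Mouse means leave out the spread within a mouse. For 1427712_at the tumours of mouse 72 ran from 7.09 to 9.48 log2, while mouse 82 gave WT tumour 8 alone. This probe set had a difference of 1.66 log2 (adjusted p = 0.0135, limma), with WT mouse means of 8.51 and 8.40 log2. It also passed without WT tumour 3 (1.78 log2, adjusted p = 0.0386, limma) or WT tumour 12 (1.82 log2, adjusted p = 0.0220, limma), with a term for the number range (2.26 log2, adjusted p = 0.0130), without the mouse block (1.57 log2, adjusted p = 0.0325) and with array weights (1.61 log2, adjusted p = 0.0270). It did not pass without any of KO tumours 6, 7 and 11, WT tumours 1, 8 and 13 or mouse 02. Nor did it pass with the 3′ to 5′ covariate. Without KO tumour 2 or KO tumour 9, 1 of the 14 tested member probe sets, Guca2b included, passed as higher.

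Hsd11b2 inactivates corticosterone and so keeps the mineralocorticoid receptor free for aldosterone. It was at 9.34, 9.24, 8.63, 9.30 and 8.60 log2 in KO tumours 2, 6, 7, 9 and 11, against 6.10, 10.33, 8.84, 9.49 and 7.57 in WT tumours 1, 3, 8, 12 and 13. WT tumours 3 and 12 lay above all KO tumours, WT tumours 1 and 13 below all of them, and WT tumour 8 among them. The difference was 0.53 ± 0.72 log2 (SE, adjusted p = 0.731, limma), at −0.43 log2 in the lower number range and 3.02 log2 in the upper.

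Beyond the means, the members differed in spread. The SD over WT tumours exceeded that over KO tumours for 20 of the 21 probe sets, beside 53.99% of all 45037 probe sets. Above the level filter it did so for 13 of 14 member probe sets, beside 55.17% of the 27001 tested. By the highest probe set of each gene this held for 9 of the 10 genes, Guca2b being the exception, and for 26 of the 35 genes of a wider absorptive and surface list described below. The median SD of the 21 was 0.19 log2 in KO tumours and 1.01 log2 in WT tumours, whereas over all 45037 probe sets it was 0.20 in KO and 0.21 in WT, and over the 35 genes 0.40 in KO and 0.84 in WT. The members share tumours and cell type, so these probe sets are not independent of each other, and no test of the spread was made.

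The WT tumours kept much the same order across the genes. WT tumour 1 was the lowest WT tumour for 18 of the 21 probe sets, beside 21.1% of all 45037, and WT tumour 13 was the lowest for the other 3. WT tumour 3 was the highest for 10 and WT tumour 12 for 11. WT tumour 1 was also the lowest for 22 of the 35 genes of the wider list. These 4 tumours all came from mouse 72, so the range of the WT values lies within 1 mouse. Averaged over the 10 genes by their highest probe sets, the signal was 7.99, 7.99, 8.59, 8.19 and 8.20 log2 in KO tumours 2, 6, 7, 9 and 11, against 6.80, 9.63, 8.74, 9.47 and 7.81 in WT tumours 1, 3, 8, 12 and 13. In this mean WT tumours 3, 8 and 12 lay above every KO tumour and WT tumours 1 and 13 below. The genes did not share this for WT tumour 8. That tumour lay above all KO tumours for Car1 (11.30 log2, against 8.03 or less), Krt20 and Slc26a3 1427547_a_at. It lay below all KO tumours for Guca2a, Guca2b, Ceacam1 1425675_s_at and, narrowly, Car2.

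**Figure D3:**
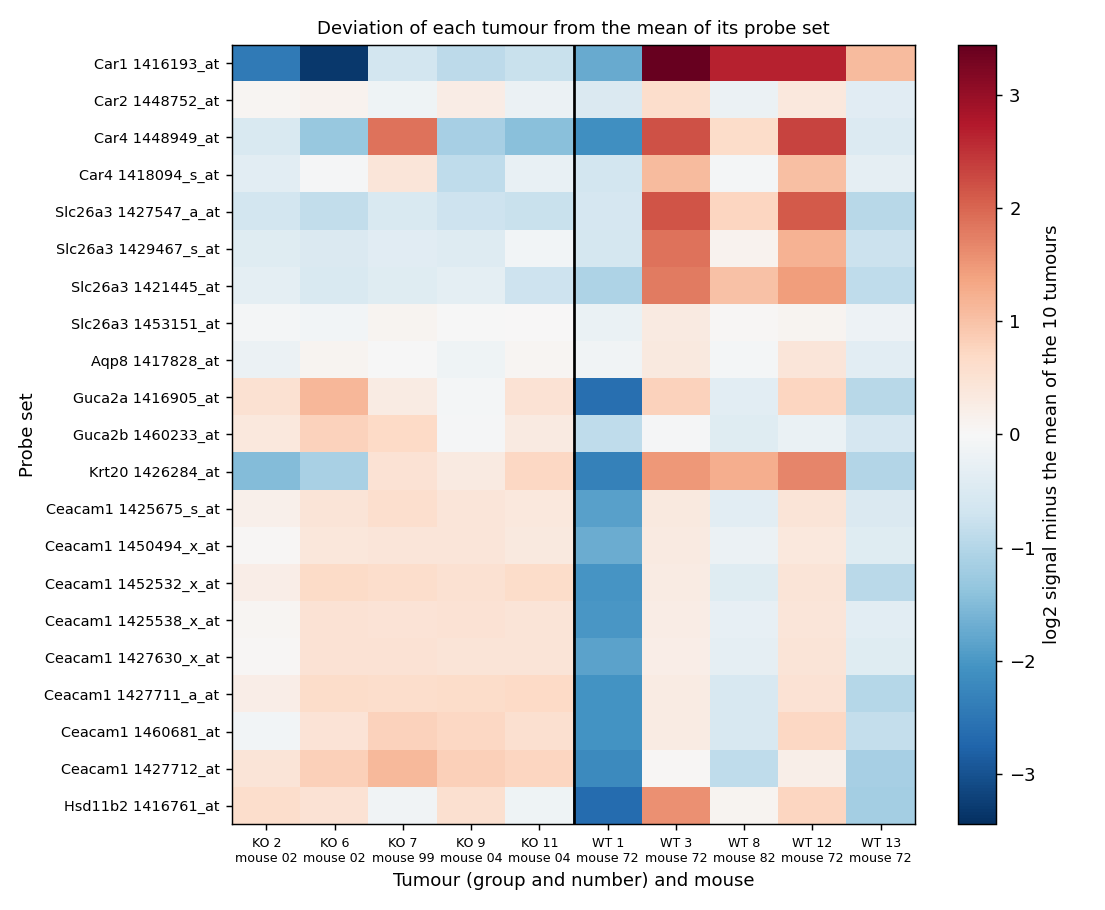
The log2 signal of each tumour minus the mean of the 10 tumours (colour) for the 21 probe sets (rows), with the 5 KO tumours left of the line and the 5 WT tumours right of it. WT tumour 1 is the lowest WT tumour in 18 of the 21 rows, WT tumour 3 or 12 is the highest WT tumour in every row, and the SD over KO tumours is the smaller one in 20 rows, all but that of Guca2b.

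Marker lists of other cells moved with some of these values. The goblet cell list, 8 genes averaged in the same way, was at 6.82 log2 in WT tumour 1, against 9.69 to 11.002 in the other WT tumours, and at 10.28 to 10.86 log2 in KO tumours. The stem cell list, 6 genes, was at 7.42 to 8.15 log2 in KO tumours and at 8.40 to 9.06 log2 in WT tumours, highest in WT tumour 1. Of its 9 tested probe sets 6 were lower in KO tumours (those of Axin2, Lgr5 and Smoc2, by 0.97 to 3.06 log2), beside 2.52% of all. The lymphocyte list, 6 genes, was at 7.14 to 7.59 log2 in KO and 5.80 to 6.41 log2 in WT tumours, with 3 of 6 tested probe sets higher in KO (Cd3g, Cd79a and Cd8a), beside 3.21% of all. The fibroblast list, 7 genes, overlapped, at 8.97 to 10.20 log2 in KO and 9.01 to 10.18 log2 in WT tumours. The part of these cells in the results for the members was not tested.

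Among transcription factors of the colonocyte, 3 genes were higher in KO tumours, Hnf4g, Klf5 and Vdr, and 0 were lower. The list held 16 genes, of which 13 were matched and 12 tested by 21 probe sets, with 3 probe sets higher, beside 3.21% of all tested, and a median difference of 0.48 log2. Hnf4g, a nuclear receptor of the gut epithelium, was at 7.43, 8.10, 7.45, 7.97 and 7.75 log2 in KO tumours 2, 6, 7, 9 and 11, against 6.49, 7.08, 6.54, 5.50 and 5.87 in WT tumours 1, 3, 8, 12 and 13. No WT tumour reached a KO tumour, and the difference was 1.43 ± 0.30 log2 (SE, adjusted p = 0.0193, limma). Klf5, a zinc finger factor of crypt cells, was at 11.23 ± 0.05 log2 in KO and 10.39 ± 0.37 log2 in WT tumours (SD, n = 5 each), without overlap (difference 0.85 log2, adjusted p = 0.0198, limma).

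Vdr, the vitamin D receptor, had the largest of these differences. Probe set 1418175_at was at 9.52, 10.55, 9.27, 9.49 and 9.22 log2 in KO tumours 2, 6, 7, 9 and 11, against 4.85, 7.71, 7.72, 7.92 and 6.35 in WT tumours 1, 3, 8, 12 and 13. All KO tumours lay above all WT tumours, with WT tumour 1 lowest as for the members, and the difference was 2.66 ± 0.59 log2 (SE, adjusted p = 0.0260, limma). Its second probe set, 1418176_at, did not overlap either and missed the threshold (1.93 log2, adjusted p = 0.0590, limma). Without KO tumour 6 none of the 3 genes passed (Hnf4g 1.32 log2, adjusted p = 0.0605, Klf5 0.84 log2, adjusted p = 0.0584, Vdr 2.41 log2, adjusted p = 0.0779, limma), nor without any of the mice 02, 04 and 72, and without WT tumour 13 Vdr did not pass (2.54 log2, adjusted p = 0.0535, limma).

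Of the wider list of 36 absorptive and surface genes, 35 were matched and 29 tested by 44 probe sets, of which 1 was higher, a smaller share than the 3.21% of all tested, and 0 were lower, with a median difference of 0.18 log2. The gene that passed was Ces2a, a carboxylesterase, at 7.14 ± 0.56 log2 in KO and 5.93 ± 0.43 log2 in WT tumours (SD, n = 5 each). Its groups overlapped slightly (difference 1.21 log2, adjusted p = 0.0418, limma). The next smallest p belonged to Vil1, the villin of the brush border, at 11.81 ± 0.14 log2 in KO and 11.13 ± 0.44 log2 in WT tumours (difference 0.69 log2, adjusted p = 0.0801, limma). Vil1 passed with array weights (0.74 log2, adjusted p = 0.0397, limma) and without WT tumour 3 (0.80 log2, adjusted p = 0.0485) or WT tumour 12 (0.81 log2, adjusted p = 0.0304). It did not pass when any other single tumour was left out. In the upper number range, against WT tumour 1 alone, its difference was 1.16 log2. The call for Ces2a was lost without any of KO tumours 2, 6 and 11 or WT tumours 1, 8 and 13 (1.03 to 1.199 log2, adjusted p = 0.0668 to 0.0980, limma). It was also lost without mouse 02 (0.93 log2, adjusted p = 0.153, limma) or mouse 04 (1.34 log2, adjusted p = 0.060, limma). Without mouse 72, which leaves WT tumour 8 alone, the Ces2a difference was 1.22 log2.

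In the rest of the carbonic anhydrase family, 13 genes with 10 tested probe sets, 1 was higher in KO tumours, that of Car8, beside 3.21% of all tested, and the median difference was 0.55 log2. Car8 belongs to the family but lacks its enzyme activity. It was at 9.78, 7.84, 6.64, 9.56 and 9.996 log2 in KO tumours 2, 6, 7, 9 and 11, against 6.19, 6.06, 6.53, 4.95 and 6.42 in WT tumours 1, 3, 8, 12 and 13. KO tumour 7 came within reach of the WT tumours, and the difference was 2.68 ± 0.65 log2 (SE, adjusted p = 0.0374, limma). The call was lost when any 1 tumour other than KO tumour 7 was left out (2.40 to 2.89 log2, adjusted p = 0.0501 to 0.0755, limma). It was also lost without mouse 02 (2.64 log2, adjusted p = 0.097, limma) or mouse 04 (2.05 log2, adjusted p = 0.134, limma). Without mouse 72, which leaves WT tumour 8 alone, the difference was 2.14 log2. Car15 had a difference of 0.37 log2 (adjusted p = 0.214, limma).

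The other families gave 0 calls, beside 5.73% of all probe sets tested in both directions. In the SLC26 list, with 5 tested probe sets and a median of −0.48 log2, Slc26a4 had a difference of −1.83 log2 (adjusted p = 0.117, limma) and Slc26a2 one of −0.54 log2. In the aquaporin list, with 7 tested probe sets and a median of −0.11 log2, Aqp5 and Aqp2 had differences of −0.19 and −0.12 log2. The receptor and effectors of the guanylins, with 16 tested probe sets, had a median of −0.19 log2. Their smallest p-values belonged to the scaffold gene Slc9a3r1, at 0.87 log2, and the kinase gene Prkg2, at −1.08 log2. The CEACAM list, with 11 tested probe sets, had a median of 0.06 log2, with Havcr2 at 0.50 and Ptpn11 at −0.26 log2. The aldosterone list, with 21 tested probe sets, had a median of 0.23 log2, with Atp1b1, a sodium pump subunit, at 0.47 log2 (adjusted p = 0.0799, limma) and Fkbp5, a glucocorticoid-induced chaperone gene, at −0.92 log2 (adjusted p = 0.109, limma). In these 5 lists the number of probe sets with an unadjusted p under 0.05 was 1, 0, 1, 0 and 9, beside 20.7% of all probe sets tested. Slc26a4 passed without mouse 72 (−4.12 log2, adjusted p = 0.00679, limma), which leaves WT tumour 8 as the only WT tumour, assumed to vary like the others, whereas without WT tumour 8 its difference was −1.13 log2 (adjusted p = 0.111, limma). Atp1b1 passed without KO tumour 7 (0.58 log2, adjusted p = 0.0157, limma).

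Other settings also ended some of these calls. Over mouse means Ces2a and Car8 did not pass (1.15 and 2.20 log2, adjusted p = 0.0881 and 0.266, limma). A term for the number range ended the calls of Hnf4g, Ces2a and Car8 (1.24, 1.14 and 1.85 log2, adjusted p = 0.0857, 0.121 and 0.162, limma). With the 3′ to 5′ covariate Klf5, Vdr and Ces2a did not pass, with differences of 0.81, 2.58 and 1.12 log2 (adjusted p = 0.0514, 0.0654 and 0.0949, limma). In the upper number range, against WT tumour 1 alone, the fitted differences of Hnf4g, Klf5, Vdr, Ces2a and Car8 were 1.32, 1.42, 4.84, 1.55 and 3.11 log2. In the lower range, with KO tumour 7 alone against 4 WT tumours, the fitted differences of Hnf4g, Klf5, Vdr, Ces2a and Car8 were 1.21, 0.62, 1.85, 0.71 and 0.67 log2.

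**Figure D4:**
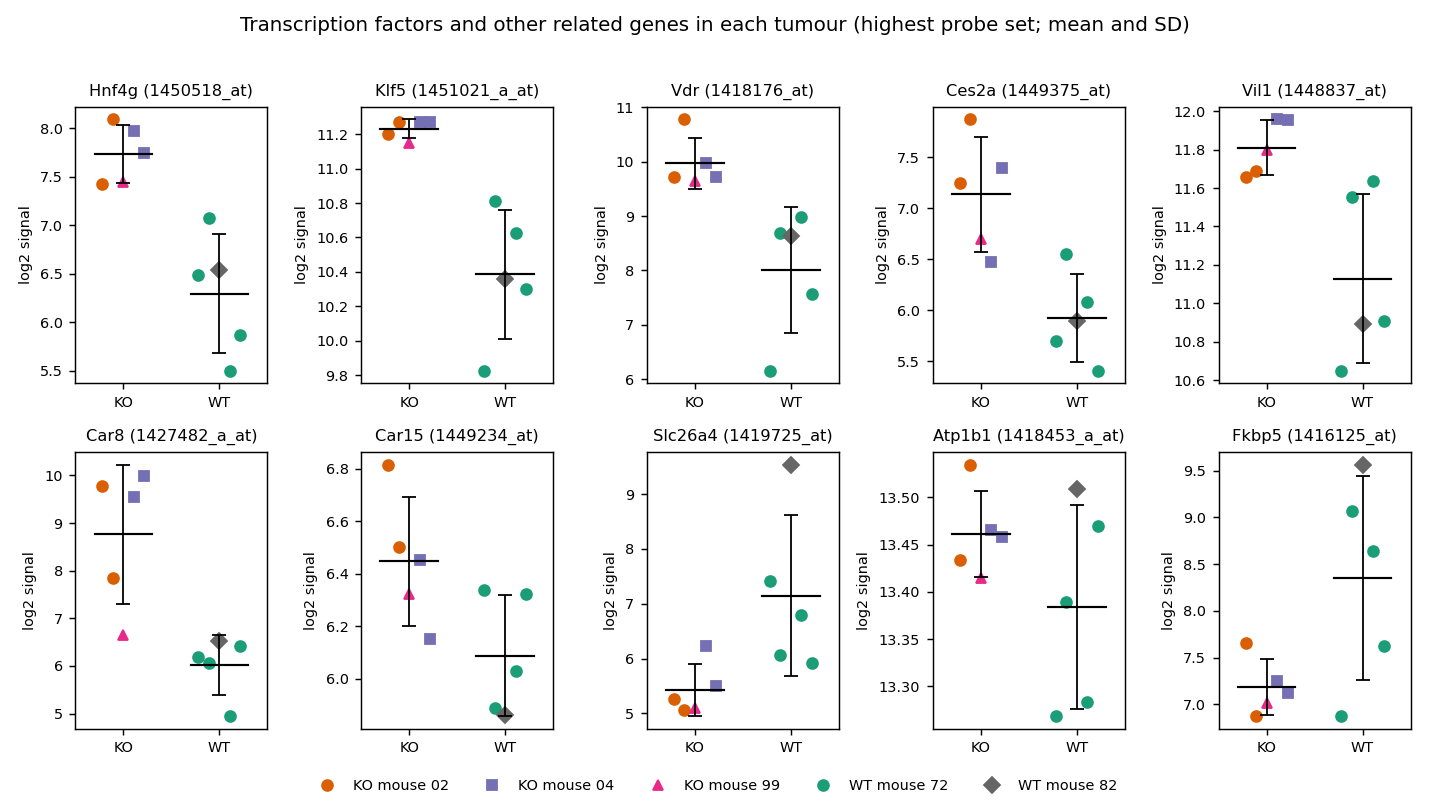
The log2 RMA signal (y axis) of 10 genes in 5 KO tumours (left in each panel) and 5 WT tumours (right). They were picked for small p-values from the transcription factor, wider, carbonic anhydrase, SLC26 and aldosterone lists. Each is drawn by its probe set with the highest mean, which for Atp1b1 and Fkbp5 is not the one quoted in the text. Points are tumours, with shape and colour for the mouse, the line is the group mean and the bar the SD. KO and WT points do not overlap for Hnf4g, Klf5, Vdr, Car8 and Vil1, of which Vil1 and the Vdr probe set drawn here, 1418176_at, missed the threshold. Of all probe sets tested, 8.39% did not overlap.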

How the data were processed

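Colon tumours of 5 KO and 5 WT samples were measured on Affymetrix mouse genome arrays. The deposited table holds a log2 signal for each probe set and array, which the authors computed with RMA per the submitters' processing notes, with the version not given in the sources used here. RMA fits background and quantile normalisation over all arrays together, so it levels whole-array differences. Of 45101 probe sets, 64 controls were left out. Symbols came from the platform annotation, of which 34754 probe sets were matched by Entrez identifier to RefSeq GRCm38.p6. No genome build of the study is named, and gene order is from that assembly.

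The difference between KO and WT was fitted with lmFit and eBayes of limma 3.58.1 under R 4.3.3, taking the mouse as a random block through statmod 1.5.0 (consensus correlation 0.0777). The fit covered 27001 probe sets whose mean reached the 40th percentile, with Benjamini-Hochberg adjustment and a threshold of 0.05. Member probe sets below this level took their values from the fit without a filter. The fit was tested on simulated data. Named genes were all members and, of the other lists, each gene past the threshold and the 2 with the smallest p. The members, lists and motifs were chosen with earlier results of these data known. Tumours of 1 mouse are not independent, and precision is limited by the 10 arrays and 5 mice.

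Alternatives were no block, mouse means, the number range as a covariate or alone, no filter and one at the 60th percentile, 1 probe set per gene, median centring, cyclic loess, array weights, a trended and robust eBayes, a 3′ to 5′ covariate, a fold of at least 2, and each tumour or mouse left out. Applying them to the family lists and to the other named genes was added after seeing the data.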

Additional observations from a re-analysis of the deposited data

Results flagged for a closer look

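Within the groups of 5 tumours, 7 of 42 combinations of a member probe set and a group held 1 tumour set apart from the other 4 by Dixon's test, which chance does in about 1 group in 20. Of these, 5 were probe sets of Ceacam1 in which KO tumour 2 was lower than the other KO tumours, and they share the same RNA and gene. KO tumour 2 was at 12.32 log2 for 1425538_x_at, while the other KO tumours were at 12.68 to 12.75, and at 12.13 for 1427630_x_at, against 12.54 to 12.60. For 1427711_a_at it was at 12.05, against 12.43 to 12.50, for 1450494_x_at at 12.62, against 12.91 to 12.997, and for 1452532_x_at at 12.61, against 12.93 to 13.05. For Car4, probe set 1448949_at, KO tumour 7 was at 7.04 log2, above the other KO tumours at 3.74 to 4.65. For Slc26a3, probe set 1429467_s_at, KO tumour 11 was at 4.00 log2, above the other KO tumours at 3.59 to 3.71.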

How the results depend on the processing

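The number of member probe sets higher in KO, 1 as reported, was 2 without the mouse block and with array weights, 4 over mouse means, 3 with the number range as a covariate, 0 and 10 in the lower and upper number range alone, and 0 with the 3′ to 5′ covariate or a fold of at least 2. Leaving out 1 tumour or mouse gave 0 to 2 higher and 0 to 1 lower, this 1 being Car1 without WT tumour 1. Over all probe sets the counts of 866 higher and 681 lower were 380 and 382 over mouse means, 24 and 32 in the lower range, 509 and 359 with 1 probe set per gene (12250 tested) and 452 and 418 at a fold of at least 2. The lower count was 405 with the 60th percentile filter and 440 with the 3′ to 5′ covariate, and leaving out samples gave 274 to 938 higher and 302 to 840 lower. In the wider list, 1 higher became 2 with the range covariate or array weights, 0 and 10 in the lower and upper range, and 0 with the 60th percentile filter or the 3′ to 5′ covariate, with 1 lower in the upper range, and 0 to 3 higher and 0 to 1 lower on leaving out samples. In the 7 family lists, 4 higher became 7 without the block, 8 with array weights, 0 and 12 in the lower and upper range and 2 with the 3′ to 5′ covariate, and 0 to 6 higher and 0 to 4 lower on leaving out samples. The causes were not tested, apart from the fewer probe sets or samples that some alternatives hold.

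Signs turned mainly with the number ranges, where the values are those of the fit, which weights mice, and not of plain means. With the range as a covariate, Aqp8 was at 0.0025, Car4 at 0.13 (1418094_s_at) and 0.88 (1448949_at), Krt20 at 0.76 and Slc26a3 1453151_at at 0.11 log2. In the lower range Car2 was at −0.25, Car4 1448949_at at 0.67, Hsd11b2 at −0.44, Slc26a3 1453151_at at 0.015, Aqp2 at 0.0089 and Ptpn11 at 0.18 log2. In the upper range Aqp8 was at 0.072, Car4 at 0.24 and 1.01, Krt20 at 1.93, Slc26a3 at 0.59 (1421445_at), 0.26 (1429467_s_at) and 0.20 (1453151_at), Csf1r at −0.025, Slc26a2 at 0.74, Bcl9l at −0.068, Cdk1 at −0.19 and Mcm2 at −0.19 log2. With array weights Slc26a3 1453151_at was at 0.0024 log2. On leaving out samples Aqp8 ran between −0.18 and 0.019, Car2 between −0.057 and 0.21, Hsd11b2 between −0.033 and 0.97, Krt20 between −1.45 and 0.24, Slc26a3 1453151_at between −0.081 and 0.051, Csf1r between −0.023 and 0.25, Ptpn11 between −0.40 and 0.079 and Acta2 between −0.037 and 1.22 log2. None of these had passed the test. No paired analysis was possible because KO and WT tumours share no replicate number or mouse.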

Other observations

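Some further genes expressed in the surface epithelium were also high in WT tumours 3 and 12. They were chosen after their values were seen and are given without a test. The chloride channel regulator Clca4a was at 4.38, 3.78, 9.04, 6.62 and 9.27 log2 in KO tumours 2, 6, 7, 9 and 11, against 4.39, 11.33, 10.57, 11.15 and 8.55 in WT tumours 1, 3, 8, 12 and 13, and the KO tumours of mouse 02 were the lowest, as for Car1 and Krt20. Tmigd1, an adhesion gene of the brush border, was at 3.15 to 4.03 log2 in the KO tumours, against 3.62, 8.12, 4.18, 7.42 and 3.60 in the same WT tumours. Car13, which lies next to Car1 in the gene order of RefSeq GRCm38.p6, was at 8.73 to 9.51 log2 in the KO tumours (probe set 1421307_at), against 6.83, 9.44, 7.82, 9.20 and 7.32 in the WT tumours. Since the genes were picked this way, WT tumours 3 and 12 being high for all 3 adds no support for the order of the WT tumours. WT tumour 1 was low for all 3, while the KO tumours were uniformly low for Tmigd1 and uniformly high for Car13. Of the 35 genes of the wider list, WT tumour 8 was the highest WT tumour for 7 and WT tumour 1 for 3. The homeobox factor gene Cdx2, by probe set 1422075_at, was at 9.26 to 10.91 log2 in the KO tumours, against 8.21, 11.81, 9.65, 11.84 and 8.43 in the WT tumours.

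Among markers of other cells, the genes with the smallest p-values that did not pass the test had these differences between KO and WT tumours. For goblet cells Agr2 was at 1.31 and Spink4 at 2.39 log2, and for enteroendocrine cells Chga was at 1.25 and Chgb at 2.41 log2. For fibroblasts Pdgfra was at −0.66 and Dcn at −0.74 log2, for smooth muscle Myh11 was at −0.31 and Acta2 at 0.52 log2, and for endothelium Tek was at −0.99 and Cdh5 at −0.52 log2. For myeloid cells Lyz2 was at −0.43 and Csf1r at 0.17 log2, for red cells Alas2 was at −0.65 log2, and for proliferation Cdk1 was at 0.21 and Mcm2 at 0.20 log2. The epithelial genes Cldn4 and Cdh1 were at −0.79 and 0.34 log2.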
